A study of Mus musculus with 16 samples.

Results

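The 39 genes described here encode enzymes, membrane proteins and pump subunits of the lysosome, together with 2 transcription factors of lysosomal genes. They were taken by name from a fixed list of symbols, and the list was chosen with earlier results of these data known. All 39 of 39 were measured, among 19938 genes with a transcript cluster of their own on the array. They comprise 6 lysosomal membrane proteins, 8 proteases, 8 glycosidases, 4 sulfatases, 7 proteins of lipid and lipoprotein breakdown, progranulin, 3 proton pump subunits, and Tfeb and Tfe3. The mice were 8 male Balb/cJ animals, an albino strain, aged 10 weeks. Of these, 4 were under cool white fluorescent light of 10000 lux for 18 hours, with tissue taken 4 hours later, and 4 control mice were kept on a 12-hour light and dark cycle. RNA was measured in the retinal pigment epithelium (RPE) and in the neurosensory retina (NSR) of each mouse, on 1 Affymetrix Mouse Gene 1.0 ST array a sample, which gives 4 groups of 4 arrays. Bright light and the changed light schedule cannot be told apart.

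Lysosomes are acidic organelles in which hydrolases break down proteins, glycans, sulfated glycans and lipids that arrive by endocytosis, phagocytosis and autophagy. A proton pump in their membrane sets the acidity, and inherited loss of many of the enzymes causes lysosomal storage disease. The RPE takes up the shed tips of photoreceptor outer segments every day and digests them in its lysosomes, and in the neural retina microglia, Müller glia and neurons carry lysosomes of their own. The factors TFEB and TFE3 bind E-box sequences of the CLEAR type (coordinated lysosomal expression and regulation) in the promoters of many lysosomal genes.

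The promoter windows of the members were searched for the core letters of that element, because they are what the 2 factors among the 39 genes are known to bind. RefSeq windows of assembly GRCm38.p6, from 250 bases before to 50 bases after an annotated start, were matched for 34 of the 39 members. Npc1, Ctsb, Ctsh, Asah1 and Atp6v1h are named only. The E-box core CACGTG, which reads the same on both strands, lay in a window of 12 of the 34 members (35.3%) and of 8.09% of 27025 genes, and in 7.15% of all 32851 windows. Among the 15614 genes of the array with a window the share was 9.5%. The longer core TCACGTGA, which contains the first and also reads the same on both strands, lay in 5 of the 34 members (14.7%) and in 1.12% of genes and 0.97% of windows. Among the genes of the array with a window its share was 1.52%. The 12 members were Lamp1, Mcoln1, Cln3, Ctsa, Ctsd, Ctsl, Lgmn, Glb1, Gaa, Arsa, Sgsh and Atp6v0d1, of which Mcoln1, Cln3, Ctsa, Ctsd and Atp6v0d1 held the longer core. Stretches before the start are printed for members with a longer core wholly before it, for Lamp1, and for members called with light that held an E-box core there. The longer core of Atp6v0d1 crosses the start and is not printed. The stretches run 5′ to 3′ on the strand of the gene, with the cores in capitals, the longer core where a gene holds it. They are Ctsa at chr2:164833720-164833772 on the plus strand, Cln3 at chr7:126583311-126583398 on the minus strand, Ctsd at chr7:142387879-142387966 on the minus strand, Mcoln1 at chr8:3500433-3500518 on the plus strand, Lamp1 at chr8:13159070-13159160 on the plus strand, Ctsl at chr13:64370721-64370770 on the minus strand, Gaa at chr11:119267793-119267858 on the plus strand and Sgsh at chr11:119355511-119355569 on the minus strand.
Ctsa: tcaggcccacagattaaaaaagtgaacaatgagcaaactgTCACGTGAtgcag
Cln3: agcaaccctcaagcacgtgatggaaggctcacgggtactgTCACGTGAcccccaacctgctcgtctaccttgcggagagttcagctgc
Ctsd: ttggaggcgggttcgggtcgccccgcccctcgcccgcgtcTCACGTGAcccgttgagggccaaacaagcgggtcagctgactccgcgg
Mcoln1: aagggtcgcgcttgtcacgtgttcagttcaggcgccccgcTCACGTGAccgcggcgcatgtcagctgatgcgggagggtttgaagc
Lamp1: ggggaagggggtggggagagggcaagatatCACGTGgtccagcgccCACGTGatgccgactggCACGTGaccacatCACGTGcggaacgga
Ctsl: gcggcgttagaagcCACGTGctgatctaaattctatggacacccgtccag
Gaa: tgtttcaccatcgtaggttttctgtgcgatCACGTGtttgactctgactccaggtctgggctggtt
Sgsh: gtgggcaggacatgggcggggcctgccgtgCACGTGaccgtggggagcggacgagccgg
In Lamp1 the shorter core occurred 4 times within these bases, and in genes with the longer core a separate shorter core is left in lower case. For Ctsa, Cln3 and Ctsl the annotated start used lies inside the span of the gene, downstream of its outermost start. A match is a run of letters and not a shown binding site.

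The values are log2 expression values that the authors deposited, so that a difference of 1 is a doubling. They lay between 2.20 and 13.84 over all clusters, and the median of an array lay between 6.38 and 6.57. By the mean over the 16 arrays no member fell below 5.63, under which the dimmest 25% of genes lay. Marker genes followed the tissue labels: the mean level of 16 RPE markers was 11.38 to 11.43 in control RPE and 7.13 to 7.36 in control NSR, and that of 12 rod markers was 8.28 to 8.75 in control RPE and 12.01 to 12.05 in control NSR. Some RPE arrays stood apart in genes of neighbouring tissues. The array of light-exposed mouse 2 was at 8.54 for 8 markers of cornea and ciliary epithelium, against at most 5.86 in the other light-exposed RPE arrays. The RPE array of control mouse 2 was at 7.78 for 10 lens markers, against at most 6.52 in the other control RPE arrays. Rod markers were at 8.82 in the RPE array of light-exposed mouse 1, against at most 8.08 in the other light-exposed arrays. Control RPE arrays, at 8.28 to 8.75, were near that array. Leaving it out puts all light-exposed RPE arrays below the control RPE arrays in rod markers. Results in RPE are given with these 3 arrays, and without them where a call depends on them.

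In control mice nearly the whole set had more mRNA in RPE than in NSR. Of the 39 members, 34 were higher in control RPE, 2 were lower and 3 did not pass the test (limma, p under 0.05 after Benjamini-Hochberg adjustment across the 19938 genes). Of all genes, 30.8% were higher and 24.2% lower in this comparison, so that 87.2% of the members stood against 30.8% of genes. The median difference of the members was 1.05 on the log2 scale, and that of all genes 0.04. With each array centred on its median over all clusters, an alternative chosen after seeing the data, the median of all genes moved to 0.185, 72.2% in place of 56.0% of all calls were higher, and 37 members were higher and 2 lower. In bulk tissue, fewer cells of a type and less RNA per cell cannot be told apart.

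All 8 proteases were higher in control RPE, by 0.38 to 3.09. Ctsd, the main aspartic protease of the lysosome, which degrades rhodopsin in the RPE, was 12.59, 12.57, 12.53 and 12.60 in control RPE, against 9.32, 9.57, 9.44 and 9.59 in control NSR. That is 8.54-fold (adjusted p = 2.31e-15, limma), the largest tissue difference among the members. The smallest of the proteases was Lgmn, an asparaginyl endopeptidase, at 0.38, and the arrays of the 2 tissues overlapped for Ctsh, an aminopeptidase, at 0.43. All 8 glycosidases were higher, by 0.84 for the sialidase Neu1 to 2.23 for the beta-galactosidase Glb1, which is 4.69-fold. All 7 genes of lipid and lipoprotein breakdown were higher as well. Lipa, the acid lipase of cholesteryl esters and triglycerides, was 9.66, 9.53, 9.70 and 9.77 in control RPE, against 7.18, 7.21, 6.57 and 6.06 in control NSR (7.53-fold, adjusted p = 1.7e-10, limma). Npc2, the soluble carrier that hands cholesterol to the membrane protein NPC1, was 11.31, 11.34, 11.19 and 11.34 in control RPE, against 8.43, 8.63, 8.58 and 8.66 in control NSR (6.6-fold, adjusted p = 4.79e-13, limma). Smpd1, the acid sphingomyelinase, differed 4.85-fold, and Psap, the precursor of the saposins, 4.59-fold. The 3 pump genes differed by 0.57 to 0.88, progranulin (Grn) by 1.35, and 3 of the 4 sulfatases by 0.29 to 1.42.

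The membrane proteins were split between the tissues. Lamp1 and Lamp2, the 2 main glycoproteins of the lysosomal membrane, and Cln3, a protein lost in juvenile Batten disease, were higher in control RPE, by 0.37, 1.55 and 0.50. Npc1, which exports cholesterol from the lysosome together with NPC2, went the other way. It was 8.81, 8.81, 8.76 and 8.94 in control RPE, against 10.02, 10.07, 9.99 and 9.90 in control NSR, so that every RPE array lay below every NSR array (2.24-fold lower, adjusted p = 9.85e-11, limma). Mcoln1, a calcium channel of the lysosome, was lower in control RPE by 0.37. Scarb2, the receptor that brings glucocerebrosidase to lysosomes, differed by 0.16 (95% interval -0.02 to 0.34), Sgsh by 0.16 (-0.00 to 0.32) and Tfe3 by 0.25 (0.00 to 0.50), and these 3 did not pass the test. Each of the 3 passed as higher in control RPE without the RPE array of control mouse 2, at adjusted p = 0.0355, 0.00702 and 0.0377 (limma), and Tfe3 also without that of control mouse 3, at 0.0361. Without the 3 RPE arrays named above Scarb2, Sgsh and Tfe3 passed too, at adjusted p = 0.0166, 0.0118 and 0.0303 (limma). After quantile normalization Lamp1 and Lgmn lost their calls, at adjusted p = 0.0807 and 0.0647, with values of 1.05e-06 and 3.16e-06 at the lowest over their alternatives. Further marker lists moved with this comparison. The 17 microglia and macrophage markers averaged 6.84 to 7.28 in control RPE and 5.88 to 5.98 in control NSR, 13 of them higher. The 7 melanocyte markers, read below with those of the tissue itself, averaged 8.99 to 9.24 and 5.92 to 5.98, all higher. The 8 fibroblast markers were all higher too, at 7.23 to 7.92 in control RPE and 5.96 to 6.11 in control NSR. Their part in the result was not tested. Of the 12 members with the E-box core, 10 were higher in control RPE and 1, Mcoln1, lower. Among all 39 members 34 were higher and 2 lower, and among all genes 30.8% and 24.2%.

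**Figure D1:**
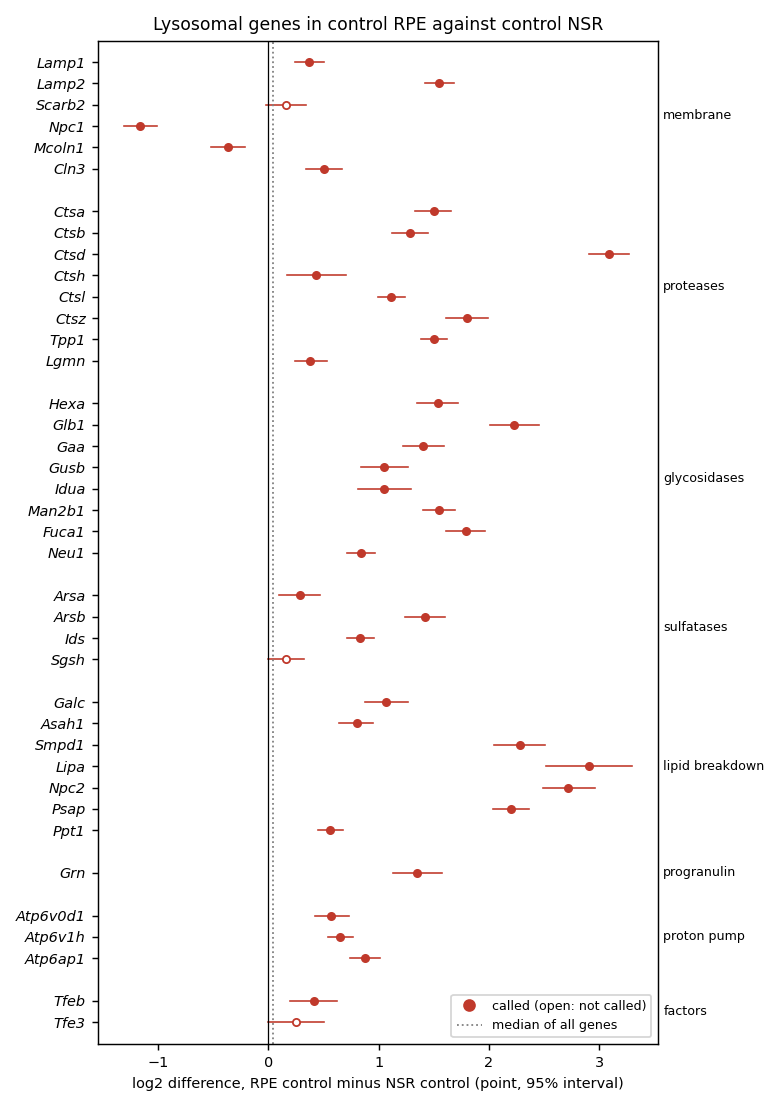
Difference of each of the 39 genes between RPE and NSR of control mice, on the log2 scale, with its 95% interval from limma (n = 4 arrays in each tissue), grouped by role; open points did not pass the test and the dotted line is the median of all genes. Points right of 0 are higher in RPE; Ctsd stands farthest right at 3.09 and Npc1 farthest left at -1.16.

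In RPE, 10 members fell and 6 rose with bright light, while 23 did not pass the test. Of all genes, 8.53% were lower and 9.08% higher in this comparison, and of the members 25.6% and 15.4%. All genes include the dimmest 25%, where no member lay. With these left out, 1787 of 14953 genes were lower and 1917 higher, and 11 members were lower and 7 higher. With all genes kept, the median difference was -0.002 for the members and -0.005 for all genes. The genes that fell were mostly soluble hydrolases and their helpers: 4 of the 7 genes of lipid and lipoprotein breakdown, 2 of the 4 sulfatases, 2 of the 8 glycosidases and 2 of the 8 proteases. Those that rose were spread over the roles, with 2 of the 6 membrane proteins, 1 protease, 1 glycosidase, 1 lipase and 1 of the 2 transcription factors. The called changes ran from 1.77-fold lower to 1.41-fold higher.

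Arsb, the sulfatase that removes sulfate from dermatan and chondroitin sulfate, changed most. It was 7.99, 8.11, 7.83 and 8.14 in light-exposed RPE, against 8.80, 8.93, 8.92 and 8.70 in control RPE. Every light-exposed array lay below every control array (1.77-fold lower, log2 difference -0.82 ± 0.09, adjusted p = 0.000176, limma, where ± gives the standard error here and below). A further cluster annotated to Arsb differed by -0.66. Ids, which starts the breakdown of heparan and dermatan sulfate, was 9.04, 8.90, 8.81 and 8.92 in light-exposed RPE, against 9.34, 9.48, 9.41 and 9.39 in control RPE. These arrays did not overlap either, and the difference was -0.48 ± 0.07 (adjusted p = 0.00088, limma). The other 2 sulfatases, Arsa and Sgsh, differed by 0.18 and 0.06 and did not pass the test.

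Among the genes of lipid and lipoprotein breakdown, Psap fell to 11.84, 11.78, 11.65 and 11.86 in light-exposed RPE, against 12.38, 12.36, 12.37 and 12.34 in control RPE. Saposins present sphingolipids to their hydrolases. The control arrays lay within a few hundredths of each other and well above the exposed ones (-0.58 ± 0.06, adjusted p = 0.000221, limma). Smpd1 was 10.20, 9.97, 9.71 and 10.14 in light-exposed RPE, against 10.63, 10.50, 10.61 and 10.55 in control RPE (-0.57 ± 0.10, adjusted p = 0.00372, limma). Npc2 was 10.67, 10.88, 10.71 and 10.99 in light-exposed RPE, against 11.31, 11.34, 11.19 and 11.34 in control RPE (-0.48 ± 0.08, adjusted p = 0.00266, limma). In both genes all exposed arrays were the lower ones, and the exposed arrays spread more widely than the controls. Ppt1, the thioesterase that strips palmitate from proteins, lay between 10.96 and 11.04 in light-exposed RPE and between 11.28 and 11.42 in control RPE, a difference of -0.36. Lipa rose instead, by 0.28, with 9.83 to 10.07 in light-exposed RPE and 9.53 to 9.77 in control RPE. Galc and Asah1, which act on galactosylceramide and ceramide, differed by 0.03 and 0.07 and did not pass the test.

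Of the glycosidases, Man2b1, the acid alpha-mannosidase, was 8.96, 8.96, 8.93 and 9.02 in light-exposed RPE, against 9.55, 9.40, 9.42 and 9.32 in control RPE (-0.46 ± 0.07, adjusted p = 0.000996, limma). Fuca1, the alpha-fucosidase, was 9.99, 9.99, 9.89 and 10.17 in light-exposed RPE, against 10.49, 10.29, 10.43 and 10.29 in control RPE (-0.37 ± 0.08, adjusted p = 0.00953, limma). Gaa, the acid alpha-glucosidase that degrades glycogen, moved in the opposite direction with no overlap of the arrays. It was 8.83, 8.98, 8.77 and 8.98 in light-exposed RPE, against 8.62, 8.39, 8.43 and 8.41 in control RPE (0.43 ± 0.08, adjusted p = 0.0036, limma). The other 5 glycosidases, Hexa, Glb1, Gusb, Idua and Neu1, differed by -0.10 to 0.19 and did not pass.

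Among the proteases the cysteine cathepsins B and L moved in opposite directions. Ctsb was 11.75, 11.83, 11.83 and 11.71 in light-exposed RPE, against 11.22, 11.28, 11.37 and 11.29 in control RPE, with the 2 sets of arrays apart (0.49 ± 0.06, adjusted p = 0.00048, limma). Ctsl was 11.15, 11.27, 11.18 and 11.18 in light-exposed RPE, against 11.31, 11.42, 11.42 and 11.44 in control RPE. The arrays of the groups did not overlap, but the gap was narrow (-0.20 ± 0.06, adjusted p = 0.045, limma). Tpp1, a tripeptidyl peptidase, lay between 10.04 and 10.20 in light-exposed RPE and between 10.40 and 10.44 in control RPE (-0.33). Ctsd was 12.51, 12.54, 12.53 and 12.54 in light-exposed RPE and 12.59, 12.57, 12.53 and 12.60 in control RPE, a difference of -0.04 (95% interval -0.16 to 0.08) that did not pass the test. Ctsa, Ctsh, Ctsz and Lgmn differed by -0.08 to 0.18 and did not pass.

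Scarb2 was the member with the largest rise in RPE. It was 9.87, 9.50, 9.81 and 9.66 in light-exposed RPE, against 9.35, 9.01, 9.33 and 9.16 in control RPE (0.50 ± 0.10, adjusted p = 0.00802, limma). Npc1 was 9.37, 9.27, 9.46 and 9.17 in light-exposed RPE, against 8.81, 8.81, 8.76 and 8.94 in control RPE (0.49 ± 0.08, adjusted p = 0.00194, limma). For both genes every exposed array was above every control array, and the cholesterol carriers Npc1 and Npc2 thus differed in opposite directions by nearly the same amount. Lamp1, Lamp2, Mcoln1 and Cln3 differed by -0.07 to 0.16 and did not pass the test. Tfe3 was 8.10, 7.80, 8.16 and 8.13 in light-exposed RPE, against 7.91, 7.43, 7.42 and 7.77 in control RPE, and the arrays overlapped (0.41 ± 0.13, adjusted p = 0.0488, limma). Tfeb was 7.19, 7.07, 7.46 and 7.55 in light-exposed RPE, against 6.99, 6.91, 7.12 and 6.89 in control RPE, a difference of 0.34 (adjusted p = 0.0607, limma). It passed in 5 of the 18 alternatives without a size threshold, among them without the RPE array of light-exposed mouse 2, at adjusted p = 0.0208, and without the 3 RPE arrays named above, at a difference of 0.50 (adjusted p = 0.0239, limma). Grn, at -0.02, and the pump genes, at -0.18 to 0.11, did not pass. The pump genes are Atp6v0d1 and Atp6v1h, subunits of its membrane and cytosolic sectors, and Atp6ap1, an accessory subunit.

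Of the 16 calls in RPE, 9 held in every alternative run other than the size threshold. Without the 3 RPE arrays named above, 4 members were higher and 6 lower, and Gaa, Fuca1, Npc2 and Ppt1 lost their calls there and in no other of these alternatives, at adjusted p = 0.0724, 0.0975, 0.0556 and 0.0603 (limma), with 0.00152, 0.00176, 0.000309 and 4.14e-05 at the lowest over the same alternatives. Their differences without the 3 arrays were 0.39, -0.37, -0.43 and -0.34, against 0.43, -0.37, -0.48 and -0.36 with all arrays. Ctsl and Tfe3 lost theirs in 10 of 18 alternatives and Lipa in 7 of 18, with adjusted p of 0.0036 to 0.213, 0.0172 to 0.125 and 0.0101 to 0.355. A single array was enough: those of light-exposed mice 1, 3 and 4 and control mice 2, 3 and 4 for Ctsl and Tfe3, and of light-exposed mice 3 and 4 and control mice 1, 2 and 3 for Lipa. Without the 3 arrays Ctsl, Tfe3 and Lipa differed by -0.21, 0.44 and 0.32 and were not called, at adjusted p = 0.213, 0.111 and 0.0666 (limma). Leaving out the RPE array of control mouse 3 brought Ctsz in as higher, at adjusted p = 0.0345. Markers of the tissue itself moved with this comparison: the 16 RPE markers averaged 10.90 to 11.10 in light-exposed RPE and 11.38 to 11.43 in control RPE, with 10 of them lower, and 6 of 7 melanocyte markers were lower. The 17 microglia and macrophage markers averaged 6.81 to 7.18 in light-exposed RPE and 6.84 to 7.28 in control RPE, with Itgam higher and Csf1r lower. Of 13 neutrophil and monocyte markers 3 were higher (23.1%, against 9.08% of all genes) and 0 lower. That list averaged 5.20 to 5.42 in light-exposed RPE and 5.13 to 5.20 in control RPE, which is below 5.63. Rod markers averaged 7.77 to 8.82 in light-exposed RPE and 8.28 to 8.75 in control RPE. The part of these cells in the result was not tested.

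In NSR, 6 members rose with light and 1 fell, while 32 did not pass the test. Of all genes, 8.87% were higher and 6.24% lower, and of the members 15.4% and 2.56%. With the dimmest 25% of genes left out, 1854 of 14953 genes were higher and 1319 lower, and 7 members were higher and 2 lower. With all genes kept, the median difference was 0.08 for the members and -0.02 for all genes. The rises were in the proteases Ctsh, Ctsl and Ctsz, in the membrane proteins Lamp2 and Scarb2 and in the galactosylceramidase Galc. The fall was in Sgsh, the sulfamidase of heparan sulfate breakdown.

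Ctsh changed most of the members in either tissue. It was 8.15, 8.06, 8.08 and 8.16 in light-exposed NSR, against 6.92, 7.22, 6.89 and 6.97 in control NSR. The exposed arrays lay close together and far above all controls (2.16-fold higher, 1.11 ± 0.08, adjusted p = 1.91e-06, limma). Lamp2, of which 1 isoform serves chaperone-mediated autophagy, was 10.57, 10.53, 10.33 and 10.58 in light-exposed NSR, against 9.54, 9.69, 9.61 and 9.59 in control NSR (1.86-fold higher, 0.89 ± 0.07, adjusted p = 5.28e-06, limma). Lamp1 was 9.61, 9.72, 9.73 and 9.56 in light-exposed NSR, against 9.73, 9.63, 9.70 and 9.73 in control NSR. The arrays of Lamp1 overlapped, and its difference of -0.04 (95% interval -0.18 to 0.10) did not pass the test.

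Ctsl was 10.79, 10.97, 10.81 and 10.92 in light-exposed NSR, against 10.30, 10.32, 10.32 and 10.19 in control NSR (1.5-fold higher, 0.59 ± 0.07, adjusted p = 8.02e-05, limma). Ctsz, a carboxypeptidase, was 7.93, 7.86, 7.95 and 7.85 in light-exposed NSR, against 7.60, 7.13, 7.30 and 7.51 in control NSR (0.51 ± 0.10, adjusted p = 0.00327, limma). Exposed and control arrays were apart for both, with the controls of Ctsz more widely spread. Scarb2 was 9.29, 9.30, 9.36 and 9.39 in light-exposed NSR, against 9.12, 9.04, 9.11 and 8.95 in control NSR (0.28 ± 0.06, adjusted p = 0.0115, limma). Galc was 8.33, 8.08, 8.12 and 7.95 in light-exposed NSR, against 7.62, 7.82, 7.83 and 7.86 in control NSR (0.34 ± 0.09, adjusted p = 0.0214, limma). The lowest exposed array of Galc stood little above the highest control, and without the NSR array of light-exposed mouse 1 or of control mouse 1 its adjusted p was 0.0538 and 0.0636, over a range of 0.0114 to 0.0636. Sgsh was 6.84, 6.85, 7.01 and 6.96 in light-exposed NSR, against 7.35, 7.19, 7.25 and 7.27 in control NSR, with no overlap (-0.35 ± 0.07, adjusted p = 0.00396, limma).

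Members next to the threshold included Ctsd, which was 9.68, 9.74, 10.11 and 9.68 in light-exposed NSR, against 9.32, 9.57, 9.44 and 9.59 in control NSR (0.32, adjusted p = 0.0542, limma). Hexa, the alpha subunit of beta-hexosaminidase, differed by -0.26 (adjusted p = 0.0554), and Grn, whose product regulates lysosomal enzymes, by 0.33 (adjusted p = 0.0705). Leaving out 1 NSR array brought each of these past the threshold: light-exposed mouse 4 for Ctsd (adjusted p = 0.0499) and Grn (0.0419), control mouse 3 for Grn (0.025), and light-exposed mouse 2 for Hexa (0.0304), which makes 2 members lower. No glycosidase, pump gene or transcription factor passed in NSR, with differences of -0.26 to 0.24, 0.05 to 0.11 and 0.11 to 0.18. The 12 rod markers were all lower with light, at 11.33 to 11.57 in light-exposed NSR and 12.01 to 12.05 in control NSR. Of 10 markers of Müller glia and astrocytes, 3 were higher and 5 lower, from -1.74 to 1.67, and the list averaged 8.55 to 8.67 in light-exposed NSR and 8.75 to 8.85 in control NSR. The 17 microglia and macrophage markers averaged 5.95 to 6.10 in light-exposed NSR and 5.88 to 5.98 in control NSR. Of these, Tyrobp (1.05), C1qc (0.56), Adgre1 (0.30) and C1qb (0.26) were higher, while Csf1r (0.03), Aif1 (0.05) and Cx3cr1 (0.01) did not pass. The part of these cells in the result was not tested.

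**Figure D2:**
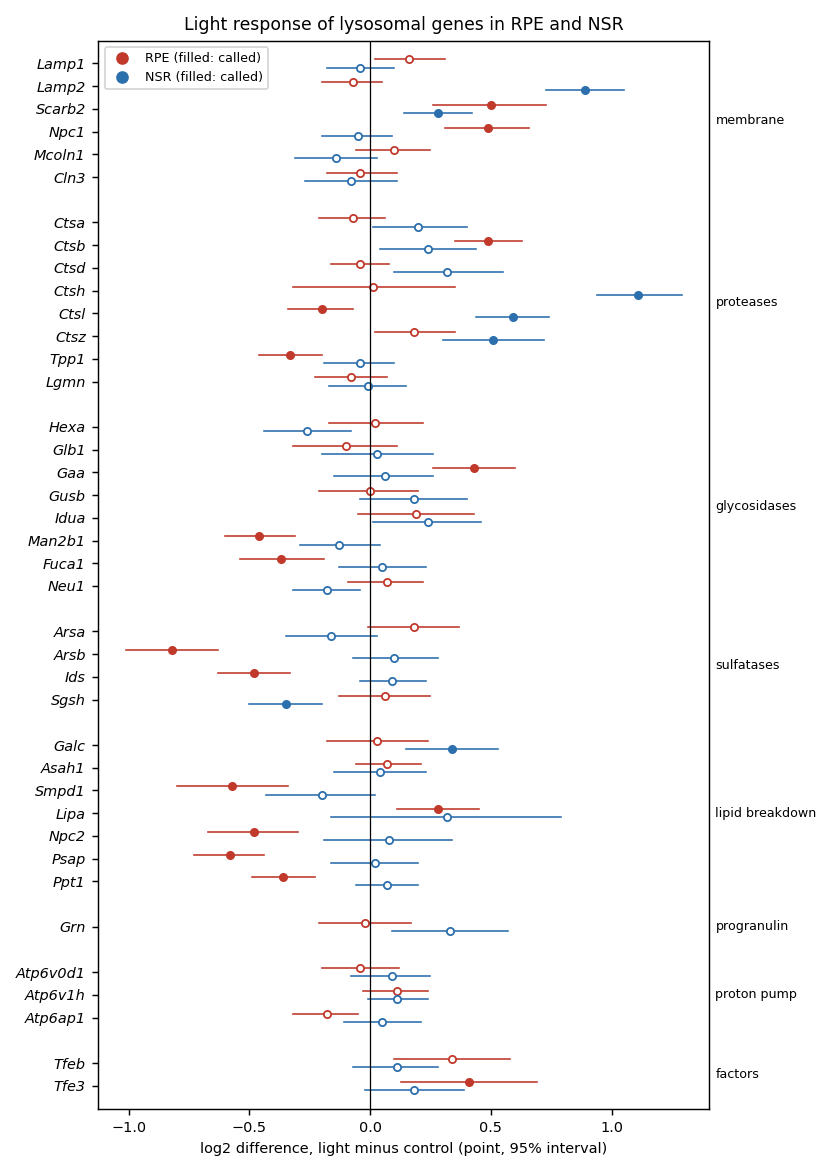
Log2 difference between light-exposed and control mice for each of the 39 genes, in RPE and in NSR, with its 95% interval from limma (n = 4 arrays a group); filled points passed the test. In RPE the points run from -0.82 (Arsb) to 0.50 (Scarb2), and in NSR from -0.35 (Sgsh) to 1.11 (Ctsh).

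The responses of the 2 tissues were then set against each other in a fit of all 16 arrays, as the light difference in RPE minus that in NSR. This difference was lower than 0 for 11 members and higher for 2, while 26 did not pass. Of all genes, 8.05% were lower and 5.16% higher, and of the members 28.2% and 5.13%. With the dimmest 25% of genes left out, 1661 of 14953 genes were lower and 1067 higher, and 12 members were lower and 3 higher. With all genes kept, the median was -0.13 for the members and 0.02 for all genes. The split depended on the setting: quantile normalization gave 7 members lower and 6 higher, and robust regression 15 lower and 5 higher. For Ctsh (-1.10 ± 0.18, adjusted p = 0.000358) and Lamp2 (-0.96 ± 0.09, adjusted p = 9.26e-07, limma) the rise in NSR stood beside differences of 0.01 and -0.07 in RPE, which did not pass. In RPE Ctsh was 7.44, 7.65, 7.31 and 7.38 in light-exposed mice, against 7.15, 7.60, 7.81 and 7.16 in control mice. Lamp2 was 11.10, 11.09, 11.07 and 11.08 in light-exposed RPE, against 11.18, 11.09, 11.17 and 11.19 in control RPE, and for both genes the groups overlapped.

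Ctsl was the member called in both tissues with opposite signs, lower in RPE and higher in NSR, and its responses differed by -0.79 ± 0.08 (adjusted p = 6.09e-06, limma). Scarb2 was called higher in both, and its responses differed by 0.22 (95% interval -0.04 to 0.47), which did not pass. For Arsb (-0.92), Psap (-0.60), Ids (-0.58), Npc2 (-0.56), Ppt1 (-0.43), Fuca1 (-0.42), Man2b1 (-0.33) and Tpp1 (-0.29) the fall in RPE stood beside NSR differences of -0.13 to 0.10, which did not pass the test. In NSR Arsb was 7.47, 7.58, 7.64 and 7.41 in light-exposed mice, against 7.49, 7.49, 7.49 and 7.23 in control mice. Psap was 10.10, 10.23, 10.26 and 10.15 in light-exposed NSR, against 10.15, 10.34, 10.22 and 9.96 in control NSR. Both genes overlapped between the groups there. Npc1 (0.54, adjusted p = 0.00125) and Sgsh (0.41, adjusted p = 0.0159, limma) differed the other way, and of the pair only Npc1 was called in RPE and only Sgsh in NSR. Smpd1, Gaa and Ctsb changed in RPE without a called difference between the tissues, at -0.36, 0.37 and 0.25 (adjusted p = 0.146, 0.0573 and 0.169, limma). Gaa passed in 10 of 26 alternatives, over adjusted p of 0.033 to 0.19, among them quantile normalization and the omission of RPE light-exposed 3, RPE control 1, NSR light-exposed 2 or 3, or NSR control 2. Ctsb passed in 2 of 26, over 0.0147 to 0.322, with robust regression and without NSR control 1 (adjusted p = 0.0281, limma).

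With the mouse as a block, as both tissues came from each animal, Tpp1, Man2b1 and Npc2 lost their call of a difference (adjusted p = 0.0651, 0.088 and 0.0638, limma). These 3 and Fuca1 lost it in 6 to 9 of 26 alternatives without a size threshold, over adjusted p of 0.00187 to 0.137 for Tpp1, 0.0112 to 0.175 for Man2b1, 0.00179 to 0.108 for Npc2 and 0.00916 to 0.0831 for Fuca1. Several arrays were each enough for this. For Tpp1 they were RPE light-exposed 1 and 3, RPE control 2, and NSR control 1 and 4. For Man2b1 they were RPE light-exposed 2 and 3, RPE control 1, NSR light-exposed 1, and NSR control 1 and 2. For Fuca1 they were RPE control 1, NSR light-exposed 2, and NSR control 2 and 4, and for Npc2 RPE light-exposed 3, NSR light-exposed 1 and 3, and NSR control 1. Without the 3 RPE arrays named above, these 4 differed by -0.31 (Tpp1), -0.33 (Man2b1), -0.51 (Npc2) and -0.42 (Fuca1) and were not called, at adjusted p = 0.0552, 0.103, 0.108 and 0.0745 (limma). Sgsh also lost its call there, at a difference of 0.32 and adjusted p = 0.0788, over a range of 0.00297 to 0.0788.

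**Figure D3:**
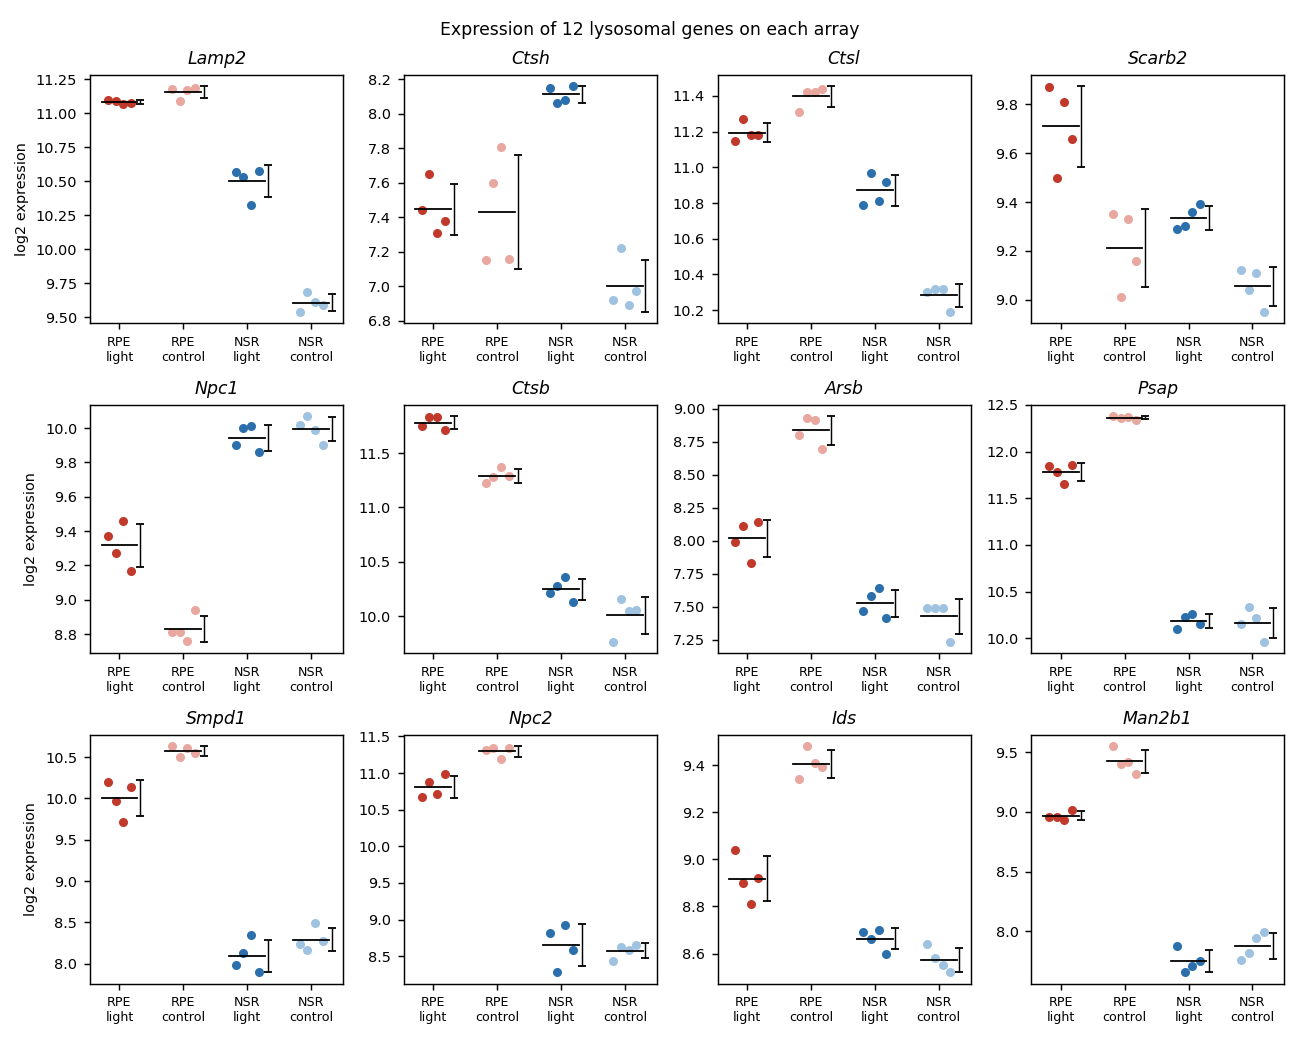
Log2 level of 12 lysosomal genes on each of the 16 arrays, with light-exposed left of control mice in each tissue; points are arrays, horizontal lines group means and brackets 1 SD either side (n = 4), and each panel has its own vertical range. Ctsh and Lamp2 separate light-exposed from control arrays in NSR, Arsb and Psap in RPE, and Ctsl in both tissues in opposite directions.

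Of the 12 members whose windows held the E-box core, 1 rose (Gaa) and 1 fell (Ctsl) in RPE, where 9.08% of all genes were higher and 8.53% lower. In NSR 1 rose (Ctsl) and 1 fell (Sgsh), against 8.87% and 6.24% of all genes. The 5 members with the longer core, Mcoln1, Cln3, Ctsa, Ctsd and Atp6v0d1, did not pass with light in either tissue, and the smallest adjusted p among them was that of Ctsd in NSR (0.0542, limma). Their differences lay between -0.07 and 0.10 in RPE and between -0.14 and 0.32 in NSR.

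Other genes of the lysosomal pathway were read from 7 lists that together held 178 measured genes. In RPE 22 of them rose and 37 fell with light, which is 12.4% and 20.8%, against 9.08% and 8.53% of all genes. In NSR 26 rose and 10 fell, 14.6% and 5.62%, against 8.87% and 6.24%. In control mice 117 were higher in RPE than in NSR and 25 lower, 65.7% and 14%, against 30.8% and 24.2%. The difference of the responses was higher than 0 for 11 and lower for 32, 6.18% and 18%, against 5.16% and 8.05%. In RPE, 11 of 31 further membrane proteins and transporters fell and 3 rose, 6 of 21 further pump subunits fell and the other 15 did not pass, and 7 of 28 further hydrolases fell and 4 rose. Of 31 autophagy genes 5 fell and 3 rose, of 22 TFE factors and nutrient sensors 5 fell and 3 rose, and of 27 sorting genes 1 fell (3.7%) and 2 rose (7.41%), both shares under those of all genes.

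Arsg, a sulfatase of heparan sulfate breakdown, was lower by 1.27 in light-exposed RPE (adjusted p = 8.85e-06, limma), while Hgsnat, an acetyltransferase of the same pathway, was higher by 0.83. Arsg was 7.98, 7.99, 8.01 and 8.21 in light-exposed RPE, against 9.32, 9.31, 9.45 and 9.20 in control RPE. Tmem106b fell by 0.52, the pump genes Atp6v0e2 and Atp6v1g2 fell by 0.51 and 0.49, and Sort1, a sorting receptor, fell by 0.60. In control mice Atp6v1g2 was lower in RPE than in NSR, at -1.84, and Atp6v0e2 differed by -0.15, which did not pass the test. Mitf, which belongs to the same factor family as Tfeb and Tfe3, was 9.75, 9.73, 9.65 and 9.80 in light-exposed RPE, against 10.50, 10.35, 10.59 and 10.50 in control RPE. All exposed arrays of Mitf were below all controls (-0.75, adjusted p = 8.33e-05, limma). Tfec, another member of that family, was called higher by 0.47, but all its arrays lay below 5.63. Lyst, a regulator of lysosome size, rose by 0.62, and the autophagy gene Wipi1 fell by 0.79. Arsg, Wipi1 and Atp6v0e2 were called lower in NSR too, by 0.20, 0.38 and 0.37. Hgsnat, Tmem106b, Atp6v1g2, Sort1, Mitf, Tfec and Lyst did not pass in NSR.

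Cd68, a lysosomal glycoprotein abundant in macrophages, rose in both tissues. It was 10.35, 10.58, 11.29 and 10.31 in light-exposed RPE, against 7.48, 8.02, 8.02 and 7.96 in control RPE (6.78-fold, adjusted p = 3.49e-05, limma). In NSR it was 7.50, 7.76, 8.18 and 7.55 in light-exposed mice, against 5.65, 6.08, 6.12 and 5.94 in control mice (3.48-fold, adjusted p = 5.28e-06, limma). The NSR controls of Cd68 lay just above 5.63, so that the size of this change rests on dim values. Sqstm1, the autophagy receptor p62, also rose in both, by 0.71 in RPE and 0.85 in NSR. In NSR the protease Ctsc rose by 1.62, the beta-mannosidase Manba by 0.56, the membrane protein Cd63 by 0.71, the pump genes Atp6v1f and Atp6v0e by 0.43 and 0.37, and Atg16l1 by 0.61. The NSR controls of Manba, at 5.69 to 6.19, were dim as well. The sorting genes Ap1s1 and Ap1b1 rose by 0.40 and 0.26 and Lamtor5 by 0.51, while Fnip2 fell by 0.66. In RPE Ctsc and Atp6v0e went the other way, by -0.36 and -0.32 (adjusted p = 0.00359 and 0.00871, limma). Fnip2 fell in RPE as well, by 0.34. Manba, Cd63, Atp6v1f, Atg16l1, Ap1s1, Ap1b1 and Lamtor5 did not pass in RPE.

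Of the 18 genes listed under cathepsin inhibitors and sensors of damaged lysosomes, 7 rose and 2 fell in RPE, and in NSR 8 rose and the other 10 did not pass. In RPE that is 38.9% and 11.1%, against 9.08% and 8.53% of all genes. In NSR 44.4% rose, against 8.87% of all genes. These shares are not a measure of lysosomal damage. Serpinb1a, a protease inhibitor, was 10.92, 11.11, 11.50 and 10.87 in light-exposed RPE, against 5.64, 5.74, 6.08 and 6.23 in control RPE. The controls lay just above the level of the dimmest 25% of genes, so that the size of the change (36.1-fold, adjusted p = 1.44e-07, limma) rests on dim values. Cstb, which inhibits cysteine cathepsins, rose 2.54-fold in RPE. In NSR the largest rises were in Lgals1, 4.82-fold, and Anxa2, 3.76-fold. Lgals1 and Anxa2 also rose in RPE, 1.52-fold and 1.64-fold, and Cstb rose 1.75-fold in NSR. Serpinb1a did not pass in NSR, where all its arrays lay below 5.63.

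**Figure D4:**
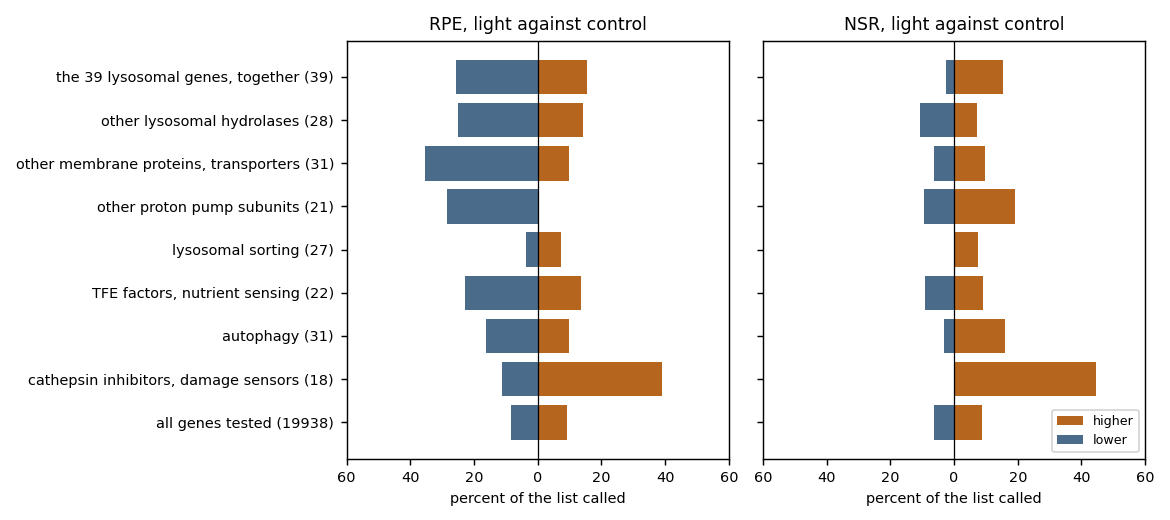
Share of genes called higher (right of 0) and lower (left of 0) with light, in percent, for all genes, the 39 lysosomal genes and the further lists of the pathway, in RPE and in NSR. In RPE the 39 genes show 15.4% higher and 25.6% lower, against 9.08% and 8.53% of all genes.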

How the data were processed

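RNA of RPE and NSR was hybridised to 16 one-colour arrays, 1 per tissue and mouse. The authors deposited log2 values, one for each of 35556 transcript clusters. The submitters' processing notes name RMA and Partek 6.6. A measure of detection or background was not used here. Each gene took its brightest single-symbol cluster by the mean over 16 arrays. Of 21789 such clusters 21698 matched a RefSeq table by gene identifier. Within each tissue 8 arrays were fitted with limma 3.58.1 (lmFit and eBayes, R 4.3.3), and all 16 were fitted with 4 group means to compare the responses and the tissues. Adjusted p-values are Benjamini-Hochberg over 19938 genes, and a call is an adjusted p under 0.05. Tables and figures used Python 3.11.15, pandas 2.3.3 and matplotlib 3.10.9. The fits were tested on simulated data.

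The 39 members, the lists, the tests and the alternative settings were chosen with earlier results of these data known. Values by array are given for members called with light or in the difference, up to 12 a comparison by size, and for members singled out. Of each further list the 2 called genes with the largest light difference in each tissue are named. Alternatives covered scaling, a filter on dim genes, priors, array weights, clusters, blocks, a size threshold of 0.5, and arrays left out. Groups and mouse numbers came from the labels, which tie RPE and NSR of 1 mouse together. Over the 8 mice, the correlation of the deviations of both tissues from their group means was -0.011 to 0.053. For arrays of 1 tissue that share only a number it was -0.017 to 0.066. The number of arrays limits the precision, and no depth applies to arrays.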

Additional observations from a re-analysis of the deposited data

Results flagged for a closer look

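Of 156 sets of 4 arrays, 1 for each member and group, 8 held an array far from the other 3 by Dixon's test, and chance flags about 1 in 20. Ctsd was 10.11 in NSR of light-exposed mouse 3, against 9.68 to 9.74 in the other light-exposed mice. Ctsl was 11.31 in RPE of control mouse 1, against 11.42 to 11.44 in the other controls. In NSR of control mouse 4 Ctsl was 10.19, against 10.30 to 10.32, and Arsb was 7.23, against 7.49 in each of the other controls. Hexa was 8.20 in NSR of control mouse 3, against 8.05 to 8.06. Gaa was 8.62 in RPE of control mouse 1, against 8.39 to 8.43. Atp6v1h was 10.34 in RPE of light-exposed mouse 3, against 10.21 to 10.23, and Atp6ap1 was 10.34 in NSR of light-exposed mouse 4, against 10.53 to 10.55.

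The light response differed between the tissues, as RPE minus NSR on the log2 scale, for 13 members (limma, adjusted p under 0.05). It was -1.10 for Ctsh, -0.96 for Lamp2, -0.92 for Arsb, -0.79 for Ctsl, -0.60 for Psap, -0.58 for Ids, -0.56 for Npc2, -0.43 for Ppt1, -0.42 for Fuca1, -0.33 for Man2b1 and -0.29 for Tpp1. It was 0.54 for Npc1 and 0.41 for Sgsh.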

How the results depend on the processing

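No called value turned its sign in any alternative, so that the changes below are of calls and counts. For light in RPE, a size threshold of 0.5 left 0 members higher and 3 lower, and 685 and 716 of all genes. Without the 3 RPE arrays high in markers of other tissues, 6 members were lower, and 998 genes were higher and 1058 lower. For light in NSR, the size threshold left 0 members lower, and 751 genes higher and 315 lower. There 2 members were lower with each array centred on its median, with the dimmest 25% of genes left out and with an intensity trend and robust prior, 3 after quantile normalization, and 1 to 2 with each array left out, the 2 without light-exposed mouse 2. For the difference of responses, 6 members were higher and 7 lower after quantile normalization, 1 and 7 without the 3 arrays and 1 and 7 with the size threshold, which left 553 genes higher and 1063 lower. Robust regression gave 5 members higher and 15 lower, with 2006 genes higher and 2355 lower. For the tissues, the size threshold left 1 member lower, with 3680 genes higher and 2914 lower, and centring over all clusters, chosen after seeing the data, gave 9625 genes higher and 3700 lower. The cause of these shifts was not tested, apart from the fewer arrays and stricter rule that some settings impose. Outside the size threshold, single members lost a call 69 times and gained one 68 times. Calls that held in every alternative without the size threshold numbered 9 of 16 for RPE, 6 of 7 for NSR, 8 of 13 for the difference between responses and 34 of 36 for the tissues.

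Within a tissue, light-exposed and control mice share only a number, and deviations of same-numbered arrays correlated between -0.017 and 0.066. With that number as a replicate block, 1522 genes were higher and 1462 lower in RPE (members 6 and 9), and 1678 and 1050 in NSR (members 6 and 1). Ctsl in RPE (adjusted p = 0.0937) and Galc in NSR (0.0557) were then not called and Grn in NSR was (0.0299, limma). With the mouse as a block, 2 members were higher and 8 lower in the difference of responses, and the block changed no member's call between the tissues. The arrays carry no measure of signal over background here, so that dim genes limit the size of a fold.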
